A study of Mus musculus with 18 samples.

Results

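The 10 genes described here were *Nodal*, *Gdf3*, *Tdgf1*, *Lefty1*, *Lefty2*, *Cer1*, *Bmp2*, *Bmp4*, *Id1* and *Id3*, which encode the ligands, co-receptor, antagonists and direct targets of Nodal and BMP signalling. They were taken by symbol from the 24346 genes listed for each of 18 RNA-seq libraries, and all 10 were found in every library. The study knocked out *Kdm6a*, an X-linked gene for a histone H3 lysine 27 demethylase, in 2 hybrid female mouse ES cell lines, and asked what the loss does to gene expression before and after differentiation. *Tsix*-stop cells are a hybrid of a laboratory strain and *Mus castaneus* (*cast*) and carry a transcriptional stop in *Tsix* on the non-cast allele in every group, and their KO deletes the end of exon 2, exon 3 and the start of exon 4 of *Kdm6a* on both alleles. They were sequenced as ES cells (D0) and after differentiation (D15), with 2 wt libraries, 2 KO libraries and 1 CRISPR control library on each day. The ES cells were kept with LIF, serum and feeder fibroblasts, and the feeders were depleted before use. For D15, embryoid bodies grew without LIF until D7 and were then plated on gelatin-coated plates. The CRISPR control went through the CRISPR/Cas9 treatment without a deletion. E8 cells come from a cross of C57BL/6J (BL6) and *cast*, and their KO is a homozygous deletion of the *Kdm6a* promoter in a single clone. The E8 libraries were labelled D7 and D15 of differentiation, with 2 wt and 2 KO libraries on each day. For *Tsix*-stop cells the methods describe 2 biological replicates of wt and 2 KO clones. The labels do not say which KO library is which clone, or whether the 2 libraries of a group are separate cultures. The p-values measure the spread between these libraries only. In *Tsix*-stop KO this spread is between 2 clones if the libraries follow the methods. For E8 cells the methods describe a single wt culture and a single clone with no replicate, so their spread may be technical.

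Nodal and BMPs are secreted ligands of the TGF-beta family. Nodal binds activin receptors together with the co-receptor encoded by *Tdgf1* (Cripto), and SMAD2 and SMAD3 carry the signal to the nucleus, where *Lefty1* and *Lefty2* are among the genes switched on. BMPs act through SMAD1, SMAD5 and SMAD9 and switch on the Id genes. In the early mouse embryo Nodal signalling maintains the epiblast and induces mesoderm and endoderm, and the Lefty proteins and CER1 restrain it, whereas BMP4 promotes mesoderm and extraembryonic fates. In serum-fed mouse ES cells BMP signalling and its Id targets are known to support self-renewal.

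*Tsix*-stop libraries held 51091152 to 68796179 counts (median 61906051), while the E8 values are TPM (transcript counts scaled by length to a fixed total) whose depth is unknown. *Kdm6a* was at 46.7 to 47.8 TPM in E8 wt and at 0.00578 to 0.0319 TPM in E8 KO. *Tsix*-stop libraries had it at 105 to 211 CPM (counts scaled to a fixed library size) in wt. The D0 and D15 libraries had 132 and 94.8 CPM for KO replicate 1, 49.6 and 27.6 CPM for KO replicate 2, and 128.9 and 94.7 CPM for the CRISPR control. Counts per gene do not show the deleted exons, so these levels do not check the labels. The CRISPR control libraries were deposited under names that call them KO, so their label is in doubt. At D15 the labelled differentiation could be seen in *Tsix*-stop wt, where 7 of 10 pluripotency markers were called lower than at D0 and the summed level of 10 fibroblast markers rose from 21.8 and 24.3 TPM to 2714 and 3053 TPM. E8 cells had no D0 library, and E8 wt showed no such change between D7 and D15: the summed level of the pluripotency markers was 13247 and 13349 TPM at D7 and 17000 and 17803 TPM at D15, and the fibroblast markers summed to 23.8 to 35.9 TPM.

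*Lefty1* and *Lefty2* are near copies of each other, which bears on what short reads can separate. On GRCm38, *Lefty1* spans chromosome 1 from 180935022 to 180938400 and *Lefty2* from 180893108 to 180899103, both on the plus strand and 35918 bases apart. Their coding sequences of 1104 bases were identical at 91.8% of aligned positions. Of the 75-base windows in their transcripts, 11.2% of those of *Lefty1* and 7.21% of those of *Lefty2* were found in the other gene. A 75-base read inside such a window cannot be given to either gene. The window of 90 coding bases with the most differences, at positions 35 to 124, is shown for both genes with its 27 differing bases in capitals, where reads do separate them. The sequences are those of GENCODE vM21.
Lefty1: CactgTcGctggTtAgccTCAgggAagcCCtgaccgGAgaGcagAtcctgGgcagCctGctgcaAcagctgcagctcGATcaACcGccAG
Lefty2: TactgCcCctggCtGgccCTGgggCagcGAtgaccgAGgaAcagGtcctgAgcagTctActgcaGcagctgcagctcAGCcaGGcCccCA

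Of the other members, *Tdgf1* (chromosome 9, 110939603 to 110946158, minus strand) shared 8.67% of its windows with the pseudogene *Tdgf1-ps1*. The span of *Bmp4* (chromosome 14, 46383520 to 46390669, minus strand) is overlapped on the other strand by the genes *Gm15217* and *Gm15222*. The library kit does not mark the strand. Of the windows in the *Bmp4* transcript, 0.75% were found in transcripts of *Gm15217*, and only reads inside these cannot be told apart. *Nodal* (chromosome 10, 61417972 to 61425338, plus strand), *Gdf3* (chromosome 6, 122605403 to 122610087, minus strand), *Bmp2* (chromosome 2, 133552159 to 133562885, plus strand), *Id1* (chromosome 2, 152736251 to 152737410, plus strand) and *Id3* (chromosome 4, 136143497 to 136145755, plus strand) shared no window with another gene. *Cer1* (chromosome 4, 82881751 to 82885148, minus strand) shared 0.12% of its windows.

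*Bmp4* and *Cer1* were called lower together in *Tsix*-stop KO at D15, so the 250 bases before their RefSeq start sites (GRCm38.p6) are shown, read on the minus strand, with CG dinucleotides in capitals. The window of *Bmp4* at chr14:46390670-46390919 held 11 CG dinucleotides and that of *Cer1* at chr4:82885152-82885401 held 5, against a median of 6 over 32851 promoters. Windows were at hand for 5 of the 10 members. None of the 5 held the letters AATCCACA or AATACACA (FOXH1, in 0.718% and 0.895% of all promoters on either strand), GTCTAGAC (a Smad palindrome, 0.167%), GGCGCC (a GC-rich Smad element, 9.59%) or TATAAA (12.4%). No match says only that these letters are not in these windows.
Bmp4: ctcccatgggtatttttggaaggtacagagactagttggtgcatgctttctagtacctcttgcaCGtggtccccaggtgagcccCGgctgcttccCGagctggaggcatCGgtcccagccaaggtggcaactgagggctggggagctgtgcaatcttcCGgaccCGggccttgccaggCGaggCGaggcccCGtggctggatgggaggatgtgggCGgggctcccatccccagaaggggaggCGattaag
Cer1: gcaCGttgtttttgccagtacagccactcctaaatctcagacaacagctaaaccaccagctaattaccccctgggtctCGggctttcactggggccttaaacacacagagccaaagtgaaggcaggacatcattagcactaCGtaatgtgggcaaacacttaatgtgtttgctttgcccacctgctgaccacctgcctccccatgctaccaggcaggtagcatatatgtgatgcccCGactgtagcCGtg

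KO was first compared with wt on each day. A gene was called at an adjusted p of at most 0.1 and a change of at least 2-fold, by edgeR on the counts of *Tsix*-stop cells and by limma on log2(TPM + 1) of E8 cells, where the fold change understates the change of low genes. In *Tsix*-stop cells at D0, 3 of 10 members were called, *Lefty1* and *Lefty2* lower and *Id3* higher, where 8.12% of the 13121 genes tested were called. At D15, 4 of 10 were called, all lower (*Cer1*, *Bmp2*, *Bmp4* and *Id3*; DESeq2 called *Lefty1* higher as well), where 14.9% of genes were called and 11.1% were called lower. In E8 cells at D7, 7 of 10 were called, *Gdf3*, *Tdgf1*, *Lefty1*, *Lefty2* and *Cer1* lower and *Bmp2* and *Id3* higher, where 17.5% of 12452 genes were called. At D15, 6 of 10 were called, *Lefty1* and *Lefty2* lower and *Cer1*, *Bmp2*, *Bmp4* and *Id3* higher, where 10.7% of genes were called. The median log2 change of the members was −0.34 and −0.35 in *Tsix*-stop cells at D0 and D15 (all genes tested, −0.01 and 0.00) and −0.93 and 0.22 in E8 cells at D7 and D15 (all genes, 0.10 and 0.09). The KO and wt libraries did not overlap for 8 and 7 of the 10 members in *Tsix*-stop cells at D0 and D15 (57.5% and 74.8% of all genes), and for all 10 on both days in E8 cells (90.5% and 87.2% of all genes).

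**Figure D1:**
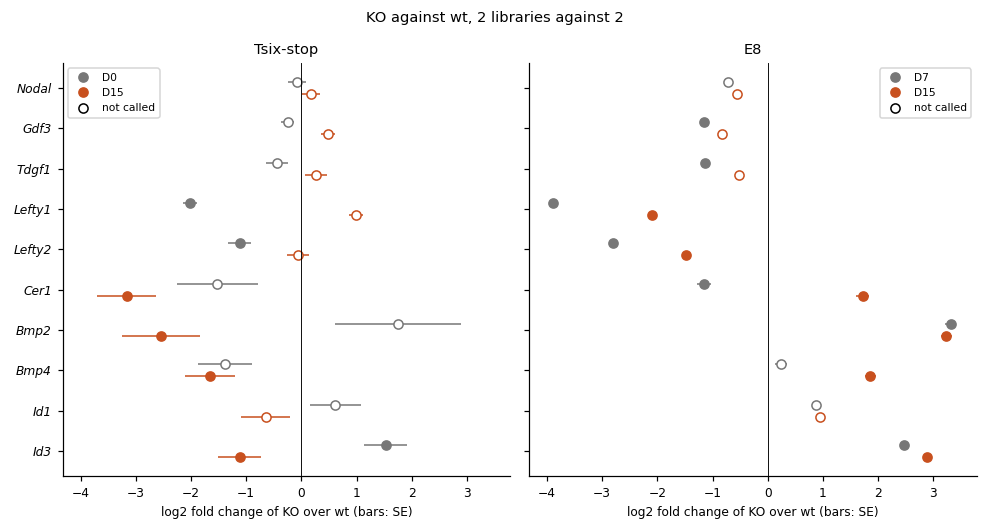
Log2 fold change of KO over wt with its standard error (horizontal axis) for each of the 10 genes (vertical axis), at D0 and D15 in *Tsix*-stop cells and at D7 and D15 in E8 cells, with filled points for called genes. At D15 the BMP genes *Bmp2*, *Bmp4*, *Id1* and *Id3* lie left of 0 in *Tsix*-stop cells and right of 0 in E8 cells.

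*Nodal*, the ligand itself, was not called between KO and wt in any of the 4 comparisons. Among *Tsix*-stop libraries it was at 167 and 197 TPM in wt and 177 and 196 TPM in KO at D0, and at 115 and 120 TPM in wt and 149 and 113 TPM in KO at D15. The groups overlapped on both days, with log2 changes of −0.08 (SE 0.16, adjusted p 0.79 by edgeR) and 0.17 (SE 0.16, adjusted p 0.42). In E8 cells *Nodal* was lower in KO without reaching 2-fold: 58.7 and 57.5 TPM in wt against 33.9 and 36.3 TPM in KO at D7, and 64.9 and 70.1 TPM against 45.9 and 45.2 TPM at D15. These log2 changes were −0.71 (SE 0.05, adjusted p 4.90e-06 by limma) and −0.55 (SE 0.05, adjusted p 3.01e-05).

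*Gdf3*, a ligand related to *Nodal* that acts with it, and *Tdgf1*, the Nodal co-receptor, were called lower in E8 KO at D7 only among these comparisons. *Gdf3* was at 76.2 and 73.9 TPM in E8 wt and 33.9 and 32.1 TPM in KO at D7 (log2 change −1.16, SE 0.04, adjusted p 1.18e-07 by limma). At D15 it was at 72.5 and 74.6 TPM in wt and 40.8 TPM in both KO libraries (−0.83, adjusted p 1.06e-06). *Gdf3* went the other way in *Tsix*-stop cells at D15, with 99.1 and 104 TPM in wt and 152 and 131 TPM in KO (0.48, SE 0.12, adjusted p 0.016 by edgeR), below 2-fold but with no overlap. At D0 it was at 278 and 285 TPM in wt and 251 and 264 TPM in KO (−0.25, adjusted p 0.22). *Tdgf1* had the highest TPM of the 10 in all 5 *Tsix*-stop libraries at D15. In E8 cells it was at 331 and 343 TPM in wt and 157 and 147 TPM in KO at D7 (−1.14, SE 0.04, adjusted p 1.65e-07 by limma), and at 288 and 296 TPM against 202 and 206 TPM at D15 (−0.51, adjusted p 1.63e-05). Pluripotency markers were also lower in E8 KO at D7, with a summed level of 13247 and 13349 TPM in wt and 4749 and 4613 TPM in KO and 5 of 10 called lower, and their part in the levels of *Gdf3*, *Tdgf1* and the Lefty genes was not tested. In *Tsix*-stop cells *Tdgf1* was at 493 and 432 TPM in wt and 397 and 345 TPM in KO at D0. At D15 it was at 479 and 435 TPM in wt and 650 and 438 TPM in KO, and neither difference passed the test (adjusted p 0.19 and 0.34 by edgeR).

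*Lefty1* and *Lefty2*, secreted antagonists of Nodal that are also its targets, were called lower in KO in 3 of the 4 comparisons. *Lefty1* had 11489 and 9153 counts in wt and 2529 and 2645 counts in KO of *Tsix*-stop cells at D0, or 330 and 312 TPM against 85.7 and 85.9 TPM. This was a log2 change of −2.02, or 4.06-fold (SE 0.13, adjusted p 2.76e-04 by edgeR). *Lefty2* was at 793 and 896 TPM in wt and 352 and 491 TPM in KO (−1.12, SE 0.20, adjusted p 0.01). At D0 the 8 cardiac markers summed to 57.5 and 46.9 TPM in wt and 16.6 and 14.7 TPM in KO. Of 7 tested, 2 were called lower. The neural markers summed to 168 and 179 TPM against 79.2 and 58.1 TPM, with 2 of 3 tested called lower. *Myl7* and *Tubb3* held most of these sums in wt. The primitive streak markers went the other way, with 34.6 and 29.8 TPM in wt and 59.9 and 56.0 TPM in KO. Of 3 tested, 0 were called. The pluripotency markers were also higher in sum, 14356 and 13948 TPM against 15988 and 14699 TPM, with 0 of 10 called. The part of these markers in the D0 changes was not tested. The call for *Lefty2* was lost without KO D0 replicate 1, when the log2 change of −0.91 fell short of 2-fold. In E8 cells at D7, *Lefty1* was at 297 and 276 TPM in wt and 18.04 and 18.5 TPM in KO (−3.90, SE 0.06, adjusted p 3.99e-09 by limma), and *Lefty2* at 346 and 343 TPM against 48.3 TPM in both KO libraries (−2.81, SE 0.03, adjusted p 7.06e-10). At D15, *Lefty1* was at 314 and 311 TPM against 76.7 and 68.4 TPM (−2.10, SE 0.06) and *Lefty2* at 424 and 421 TPM against 152 and 151 TPM (−1.48, SE 0.03).

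*Tsix*-stop cells at D15 differed from this. *Lefty1* was at 71.5 and 81.6 TPM in wt and 146 and 157 TPM in KO, a log2 change of 0.99 (SE 0.12, adjusted p 9.29e-04 by edgeR) that stopped just short of 2-fold. It passed 2-fold, and was called higher, with DESeq2 (1.003, adjusted p 2.87e-11), with RLE size factors (1.003), without a filter on low counts (1.06), with the count on the *cast* genome (1.16), without wt D15 replicate 2 (1.14), without KO D0 replicate 2 (1.01) and without KO D15 replicate 1 (1.04). *Lefty2* was at 172 and 174 TPM in wt and 192 and 136 TPM in KO, with overlap (−0.07, adjusted p 0.82).

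**Figure D2:**
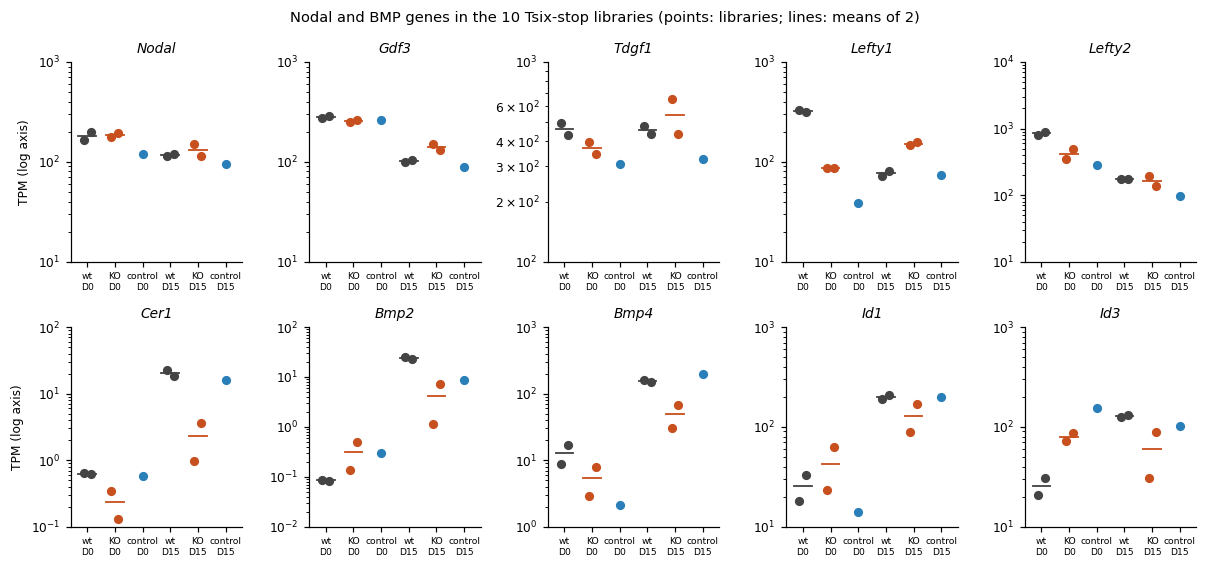
TPM on a log axis (vertical) of each gene in the 10 *Tsix*-stop libraries, by genotype and day (horizontal; control is the CRISPR control), with points for libraries and lines for means of 2. The D0 points of *Lefty1* and *Lefty2* are lower in KO and in the CRISPR control than in wt, and the D15 points of *Cer1*, *Bmp2* and *Bmp4* are lower in KO than in wt.

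*Cer1*, a secreted antagonist of Nodal, BMP and Wnt ligands known from anterior visceral endoderm, was nearly silent in *Tsix*-stop cells at D0. It had 22 and 18 counts in wt and 10 and 4 in KO at D0 (adjusted p 0.21 by edgeR). At D15 it had 643 and 478 counts in wt and 27 and 90 counts in KO, or 22.5 and 18.7 TPM against 0.99 and 3.66 TPM. That was 8.97-fold lower (log2 change −3.17, SE 0.54, adjusted p 0.0033), or −2.49 and −4.31 without KO D15 replicate 1 and 2. Without either wt D15 library *Cer1* no longer passed the filter on low counts. *Cer1* stands in a germ layer gene list that the study chose on these samples, so its direction there is not independent evidence. In E8 cells *Cer1* was at 7.33 and 6.73 TPM in wt and 3.003 and 2.24 TPM in KO at D7 (−1.16, SE 0.12, adjusted p 5.87e-05 by limma). At D15 the order was turned, with 0.37 and 0.61 TPM in wt and 3.99 and 3.77 TPM in KO (1.72, SE 0.12, adjusted p 1.02e-05).

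Markers of visceral endoderm moved in the direction of *Cer1* at D15 in both lines, and against it in E8 cells at D7. At D15 in *Tsix*-stop cells the summed level of 10 such markers was 712 and 797 TPM in wt and 37.7 to 57.3 TPM in KO, with 8 of 9 tested called lower. In E8 cells it was 20.2 and 21.8 TPM in wt against 1275 and 1278 TPM in KO at D7, where *Cer1* was lower in KO, and 16.3 and 17.0 TPM against 280.5 TPM in both KO libraries at D15, where *Cer1* was higher, with 10 of 10 markers called higher on both days. Their part in the level of *Cer1* was not tested, and in bulk libraries fewer cells of a type and less RNA per cell cannot be told apart. In the CRISPR control at D15 these markers summed to 35.7 TPM, below both KO libraries, while *Cer1* was at 16.0 TPM.

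**Figure D3:**
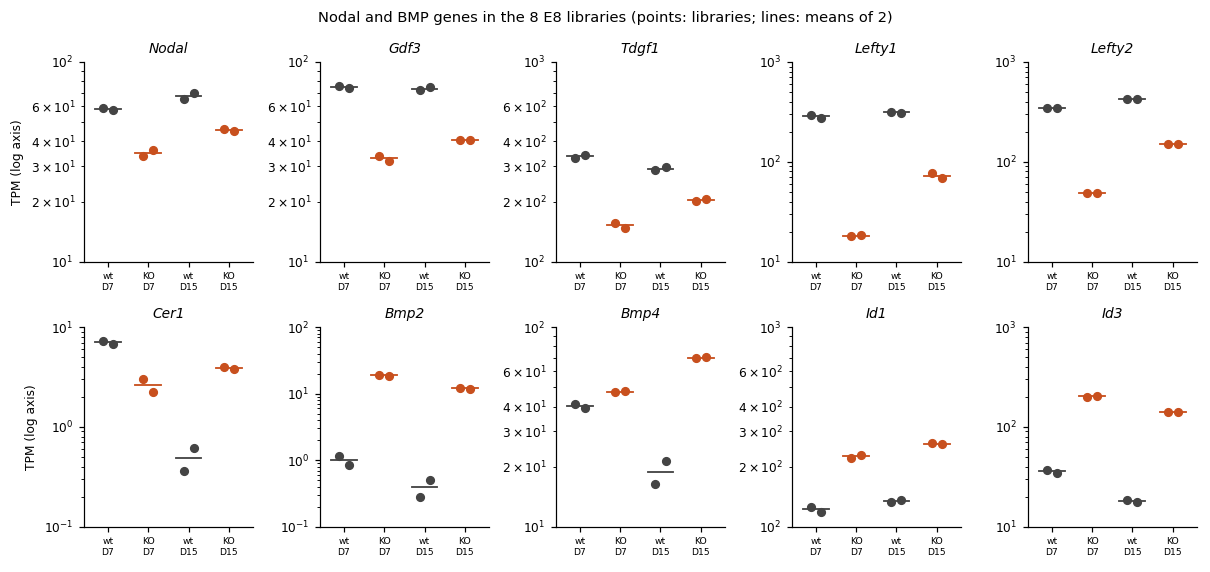
TPM on a log axis (vertical) of each gene in the 8 E8 libraries, by genotype and day (horizontal), with points for libraries and lines for means of 2. *Lefty1* and *Lefty2* are lower in KO than in wt on both days, *Bmp2* and *Id3* are higher, and *Cer1* is lower in KO at D7 and higher at D15.

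*Bmp2* and *Bmp4* encode the BMP ligands of the set. At D15 both were called lower in *Tsix*-stop KO and higher in E8 KO. *Bmp4* was at 160 and 148 TPM in wt and 30.9 and 67.5 TPM in KO of *Tsix*-stop cells at D15 (log2 change −1.65, SE 0.46, adjusted p 0.025 by edgeR). *Bmp2* was at 25.1 and 22.5 TPM in wt and 1.13 and 7.19 TPM in KO (−2.54, SE 0.70, adjusted p 0.025). The 2 KO libraries thus differed from each other, with replicate 2 nearer to wt for both genes, and without it the log2 change was −2.26 for *Bmp4* and −4.33 for *Bmp2*. The call for *Bmp4* was lost without either wt D15 library or without KO D15 replicate 1 (adjusted p 0.101, 0.103 and 0.105), and that for *Bmp2* without wt D15 replicate 1 (adjusted p 0.102). In E8 cells at D15 *Bmp4* was at 16.3 and 21.3 TPM in wt and 69.6 and 70.9 TPM in KO (1.86, SE 0.10, adjusted p 2.70e-06 by limma), and *Bmp2* was at 0.28 and 0.50 TPM against 12.2 and 11.8 TPM (3.23, SE 0.10, adjusted p 1.81e-07). On the earlier day of E8 only *Bmp2* was called, at 1.17 and 0.85 TPM in wt and 19.3 and 18.7 TPM in KO (3.32, SE 0.10), while *Bmp4* was at 41.0 and 39.3 TPM in wt and 47.3 and 47.7 TPM in KO (0.24, adjusted p 0.06). In *Tsix*-stop ES cells at D0 both genes were low. *Bmp4* had 397 and 642 counts in wt and 110 and 310 in KO, with no overlap and an adjusted p of 0.101, just past the threshold (−1.38, SE 0.49). *Bmp2* had 6 and 5 counts in wt and 8 and 31 in KO (adjusted p 0.35).

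*Id1* and *Id3* encode inhibitors of bHLH factors and are the direct BMP targets of the set. At D15 *Id3* followed the BMP ligands in direction, lower in *Tsix*-stop KO and higher in E8 KO. In *Tsix*-stop cells at D15 it was at 127 and 132 TPM in wt and 31.0 and 89.2 TPM in KO (log2 change −1.12, SE 0.39, adjusted p 0.053 by edgeR). This call was lost without KO D15 replicate 1 (−0.54, adjusted p 0.12), without wt D15 replicate 1 (adjusted p 0.14) and without wt D15 replicate 2 (adjusted p 0.19). In E8 cells *Id3* was at 36.9 and 34.9 TPM in wt and 200.1 and 205 TPM in KO at D7 (2.47, SE 0.04, adjusted p 6.08e-09 by limma), and at 18.6 and 17.6 TPM against 141 TPM in both KO libraries at D15 (2.89, SE 0.04, adjusted p 7.55e-09). In *Tsix*-stop cells at D0 *Id3* was higher in KO, at 20.6 and 30.7 TPM in wt and 72.6 and 86.6 TPM in KO (1.53, SE 0.39, adjusted p 0.039), although *Bmp4* was low and not called. That call was lost without wt D0 replicate 1 (adjusted p 0.21) and without KO D0 replicate 2 (adjusted p 0.13).

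*Id1* was not called between KO and wt in any comparison. In E8 cells it was higher in KO by less than 2-fold, at 126 and 119 TPM in wt and 222 and 230 TPM in KO at D7 (log2 change 0.88, adjusted p 4.31e-07 by limma) and 133 and 136 TPM against 262 and 261 TPM at D15 (0.95, adjusted p 5.25e-07). For *Tsix*-stop cells it was at 18.2 and 33.3 TPM in wt and 23.1 and 62.3 TPM in KO at D0, and 189 and 211 TPM in wt and 88.4 and 170 TPM in KO at D15 (adjusted p 0.42 and 0.29 by edgeR). On both days the 2 KO libraries of *Tsix*-stop cells lay farther apart than the group means.

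Of the other cell type marker lists, some moved with the BMP genes at D15, some moved against them and some moved little. For *Tsix*-stop cells at D15 the 10 fibroblast markers summed to 2714 and 3053 TPM in wt and 219 and 275 TPM in KO, with 9 of 10 called lower, and the 8 cardiac markers to 128 and 162 TPM against 32.04 and 54.8 TPM, with 5 of 7 tested called lower. The pluripotency markers summed to 8553 and 9220 TPM in wt and 11069 and 13814 TPM in KO, with 3 of 10 called higher. In E8 cells at D15 the 6 primitive streak markers summed to 15.5 and 17.2 TPM in wt and 147 and 151 TPM in KO, with 5 of 5 tested called higher, and the pluripotency markers to 17000 and 17803 TPM against 7926 and 8138 TPM, with 2 of 10 called lower. Neural markers summed to 58.0 and 58.7 TPM in *Tsix*-stop wt and 108 and 132 TPM in KO at D15. Of 3 tested, *Map2* and *Tubb3* were called higher and *Nes* lower, and *Tubb3* held most of the KO sum. Primitive streak markers in *Tsix*-stop cells at D15 summed to 58.3 and 59.4 TPM in wt and 53.0 and 59.2 TPM in KO, with 2 of 3 tested called lower. Cardiac markers in E8 cells at D15 summed to 21.1 and 18.1 TPM in wt and 17.4 and 19.0 TPM in KO, with 1 of 4 tested called higher. Fibroblast markers in E8 cells at D15 summed to 23.8 and 25.5 TPM in wt and 53.5 and 55.1 TPM in KO. Of 6 tested, 5 were called higher and 1, *Thy1*, lower. At D0 *Ttr* was at 0 in all 5 *Tsix*-stop libraries, *Apoa4* was at 0 in both wt libraries, *Dcn* was at 0 in both KO libraries and *Dcx* in the wt and KO libraries. The part of these markers in the levels of the members was not tested. In the CRISPR control at D15 the fibroblast markers summed to 121 TPM, below both KO libraries, while *Bmp4* was at 195 TPM, above both wt libraries.

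Differentiation moved most members in *Tsix*-stop wt. Between D0 and D15, 5 members were called higher and 3 lower, or 8 of 10, where 37.8% of all genes were called. *Bmp2* rose from 6 and 5 counts to 1467 and 1175 (log2 change 7.93, SE 1.01), *Cer1* rose 28.9-fold, *Bmp4* rose 10.6-fold, *Id1* rose 6.98-fold and *Id3* rose 4.52-fold. The rise of *Id3* lost its call with the CRISPR control added to wt (log2 change 0.65, adjusted p 0.41), and in that control *Id3* was at 80.2 CPM at D0 and 46.9 CPM at D15. *Lefty1*, *Lefty2* and *Gdf3* fell, by 4.71-fold, 5.47-fold and 3.10-fold. *Nodal* was at 115 and 120 TPM at D15 after 167 and 197 TPM at D0, below 2-fold (−0.80, SE 0.16, adjusted p 0.0018 by edgeR), and *Tdgf1* did not pass the test (−0.19, adjusted p 0.42). In KO, 5 of 10 were called between the days, where 27.6% of all genes were called: *Bmp2*, *Bmp4*, *Cer1* and *Id1* higher (log2 changes 3.63, 3.13, 3.21 and 1.54) and *Lefty2* lower (−1.40). These values moved with the library left out: *Bmp2* was at 1.81 without KO D15 replicate 2 and 4.84 without KO D0 replicate 2, *Cer1* at 1.49 without KO replicate 2 and 4.69 without KO replicate 1 on both days, *Bmp4* at 3.99 and *Id1* at 2.40 without KO D0 replicate 2, and *Lefty2* lost its call without KO replicate 2 on both days (−0.90). *Lefty1*, which fell in wt, was at 146 and 157 TPM at D15 in KO after 85.7 and 85.9 TPM at D0, below 2-fold (0.77, adjusted p 8.33e-04).

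In E8 cells few members were called between D7 and D15, and they were different genes in wt and KO. In wt, 2 of 10 were called, *Cer1* (−2.43, SE 0.12) and *Bmp4* (−1.07, SE 0.10), both lower at D15, where 1.41% of all genes were called and 0.819% were called lower. The call for *Bmp4* was lost without wt D15 replicate 1, when its log2 change of −0.88 was under 2-fold. In KO, 2 of 10 were called, *Lefty1* (1.93, SE 0.06) and *Lefty2* (1.63, SE 0.03), both higher at D15, where 6.11% of all genes were called and 3.41% were called higher.

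The change between KO and wt itself differed between days for several members by the interaction test of each fit. Of the 10 members, in *Tsix*-stop cells 4 were called, where 17.1% of all genes were called. The log2 change of KO over wt was higher at D15 than at D0 by 3.01 for *Lefty1* (SE 0.18, adjusted p 1.15e-04 by edgeR) and by 1.05 for *Lefty2* (SE 0.28, adjusted p 0.03). The interaction was −4.30 for *Bmp2* (SE 1.31, adjusted p 0.046) and −2.64 for *Id3* (SE 0.55, adjusted p 0.012). The interaction of *Lefty2* lost its call without wt D15 replicate 1, KO D0 replicate 1 or KO D15 replicate 1, and that of *Bmp2* without either wt D0 library, wt D15 replicate 1 or KO D0 replicate 2. In E8 cells 4 of 10 were called, all higher at D15 than at D7, where 7.25% of all genes were called and 3.89% in that direction: *Lefty1* (1.80, SE 0.08), *Lefty2* (1.33, SE 0.04), *Cer1* (2.87, SE 0.17) and *Bmp4* (1.62, SE 0.14). The tables of the 2 lines differ in unit and normalization, so no test was made between the lines.

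The CRISPR control, 1 library a day, was set beside wt and KO without a test. At D0 it stood with the KO libraries, or beyond them, for the called members. *Lefty1* had 1232 counts in the CRISPR control, below the KO libraries at 2529 and 2645 and wt at 9153 and 11489. *Lefty2* had 13647 counts, below KO at 15431 and 22452. *Id3* had 5086 counts, above KO at 2181 and 2718 and wt at 730 and 916, and *Bmp4* had 87 counts, below all 4 other D0 libraries. On the log2 scale of CPM + 0.1, the CRISPR control differed from the wt mean by −3.12 for *Lefty1*, −1.62 for *Lefty2*, 2.54 for *Id3* and −2.58 for *Bmp4*, whereas the KO mean differed by −1.99, −1.09, 1.54 and −1.33. By this measure 8 of 10 members in the CRISPR control were nearer to KO than to wt at D0, and 1 of 10 at D15. The share over all genes was not computed. Nearness says little where the KO and wt means nearly coincide. This held for *Nodal* at D0 (KO −0.05, CRISPR control −0.65) and *Lefty2* at D15 (0.005 and −0.80). *Nodal*, *Gdf3*, *Tdgf1*, *Lefty2* and *Bmp4* in the CRISPR control at D15 lay beyond both wt libraries on the side away from KO. At D15 *Lefty1* (1944 counts), *Cer1* (417), *Bmp4* (6568), *Id1* (3442) and *Id3* (2716) were nearer to the wt mean, and *Bmp2* (473 counts) lay between wt at 1467 and 1175 and KO at 63 and 362. When the CRISPR control libraries were added to the wt groups, 0 of 10 members were called at D0 (20 of all genes) and 1 of 10, *Cer1*, at D15. The D0 differences between KO and wt were therefore no larger than the difference between the CRISPR control and wt for *Lefty1*, *Lefty2* and *Id3*.

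**Figure D4:**
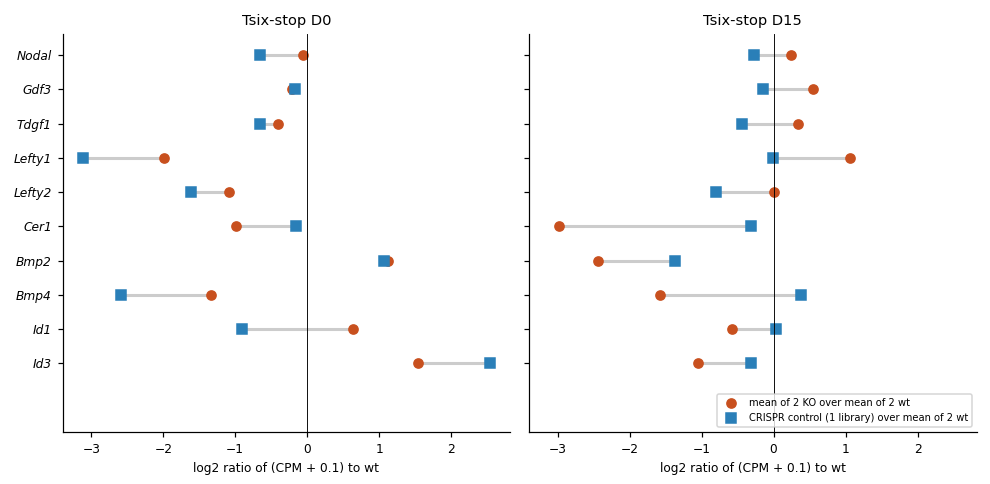
Log2 ratio of CPM + 0.1 to the wt mean (horizontal axis) for each gene (vertical axis) in *Tsix*-stop cells, for the mean of 2 KO libraries and for the single CRISPR control library. At D0 the CRISPR control lies on the side of KO for *Lefty1*, *Lefty2*, *Bmp4* and *Id3*, and at D15 it lies near 0 for *Lefty1*, *Cer1*, *Id1* and *Id3* where KO does not.

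Reads with a SNP gave the share of the non-cast allele in *Tsix*-stop cells, given with 95% Wilson intervals, which cover counting error only, where at least 20 such reads were counted. For *Id1* every D0 value lay below every D15 value, and no test was made. At D0 the non-cast share was 11.9% (5.19 to 25.0) and 18.2% (11.2 to 28.2) for wt, 18.8% and 13.0% for KO and 22.2% for the CRISPR control. Among the D15 libraries, wt had 49.9% and 50.1%, KO had 39.8% and 44.6% and the CRISPR control had 44.4%, while the median over genes within 5 Mb stayed between 50.9% and 52.9% in all 10 libraries. The D0 values rest on 36 to 123 reads. *Bmp4* was also lower at D0 in wt, going from 36.1% (28.1 to 44.9) and 34.2% (27.8 to 41.2) at D0 to 53.7% and 52.8% at D15. In KO at D15 *Bmp4* was at 43.2% (38.0 to 48.5) and 47.2% (43.2 to 51.2).

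*Lefty2* was skewed to the non-cast allele in every library, at 77.4% to 79.6% at D0 and 69.4% to 72.7% at D15, while *Lefty1*, its neighbour, was at 43.6% to 56.8% at D0 and 42.6% to 48.9% at D15. *Nodal* was at 55.3% to 64.2% and *Tdgf1* at 50.9% to 61.2% over all 10 libraries. *Gdf3* followed its region. In the CRISPR control it was at 69.2% and 70.3% where the median within 5 Mb was 65.7% and 66.5%. In wt at D15 it was at 41.7% and 41.5% where the median was 44.4% and 43.6%. The KO replicates differed. At D0 and D15 replicate 1 was at 52.7% and 52.3% (medians 49.6% and 48.5%). Replicate 2 was at 59.1% and 62.6% (medians 52.7% and 56.6%). Copy number was not tested. *Id3* had 0 SNP reads in every library, and *Cer1* and *Bmp2* had at least 20 only in some D15 libraries.

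**Figure D5:**
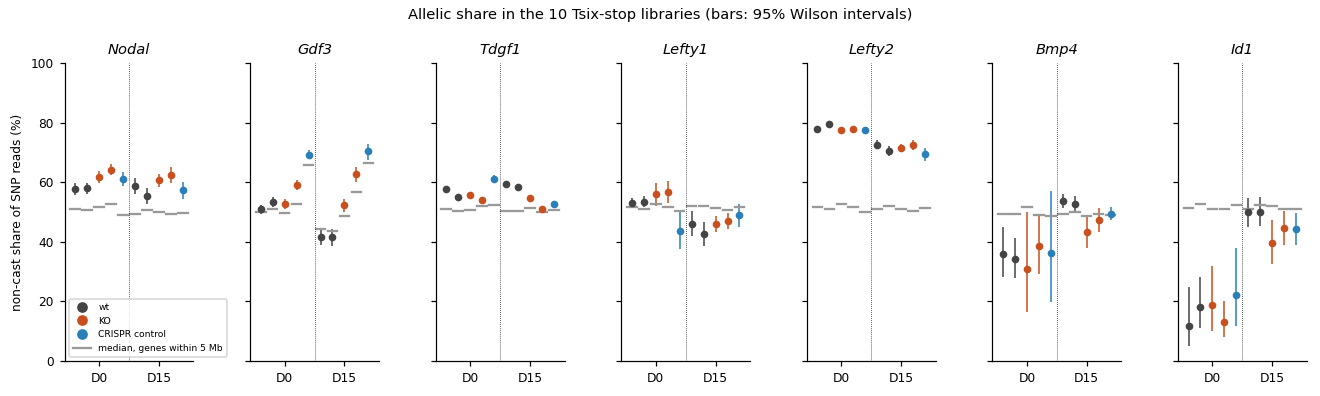
Share of SNP reads from the non-cast allele (vertical axis, percent, with 95% Wilson intervals) in each of the 10 *Tsix*-stop libraries (horizontal axis, D0 left and D15 right of the dotted line) for 7 members, with grey lines for the median of genes within 5 Mb. The D0 points of *Id1* lie between 11.9% and 22.2%, below the grey lines, and its D15 points between 39.8% and 50.1%.

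The rest of the pathway was read from 44 further ligands, receptors, Smads, antagonists and targets. In *Tsix*-stop cells at D15, 11 of the 39 tested were called lower in KO (11.1% of all genes) and 0 higher, with a median log2 change of −0.50. They were the ligands *Bmp5* and *Gdf6*, the antagonists *Nog*, *Chrd*, *Bmper* and *Bambi*, *Smad6* and *Smad9*, the protease *Furin* and the targets *Msx1* and *Msx2*. By log2 change the largest falls were those of *Bmp5* (−3.09), *Smad9* (−2.75) and *Msx1* (−2.71). In E8 cells most of the calls were higher, as they were over all genes: at D7, 10 of 36 tested were called higher (11.4% of all genes) and 1 lower (*Gdf1*, −1.32), and at D15, 14 of 36 were called higher (7.67% of all genes) and 1 lower (*Inhbb*, −1.17). At D7 the largest rises were those of the activin antagonist *Fst*, from 2.79 and 3.40 TPM to 157 and 153 TPM, and of the BMP antagonists *Nog* (3.52) and *Bmper* (3.28). At D15 they were those of the BMP targets *Msx2*, from 0.66 and 1.08 TPM to 36.7 and 38.7 TPM, and *Msx1* (4.03), and of *Fst* (2.89). In *Tsix*-stop ES cells at D0, 3 of 39 were called higher (*Fst* by 2.96, *Inhbb* by 1.45 and *Msx2* by 1.42). The 2 called lower were *Cfc1*, a second Nodal co-receptor (−2.01), and *Smad9* (−1.08), where 8.12% of all genes were called in either direction. In the CRISPR control at D0, *Fst*, *Inhbb*, *Msx2* and *Cfc1* were nearer to the KO mean, and *Smad9* was nearer to the wt mean. No receptor of either branch was called in *Tsix*-stop cells on either day, while *Bmpr2* was called higher in E8 KO on both days.

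Over the 10 *Tsix*-stop libraries, the 3 genes most like *Nodal* by Pearson's r of log2(CPM + 1) were *Scamp5* (0.97), *Traip* (0.95) and *Tcea3* (0.95). Those most like *Bmp4* were *Tbc1d2* (0.99), *Slc9a3r1* (0.99) and *Nyap1* (0.98). These are the highest values among the genes tested, over libraries that share days and genotypes, and are given as a description.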

How the data were processed

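Values of 18 RNA-seq libraries of *Tsix*-stop and E8 cells (polyA RNA, 75-base single reads, kit without strand) were used, and groups follow the labels (line, genotype, day). *Tsix*-stop cells are 129 × *cast*, so the non-cast allele is 129, and E8 cells are BL6 × *cast*. The authors mapped reads with bowtie2 to pseudo genomes made from mm10 and separated unique reads by SNP, and the submitters' processing notes name Bowtie2 2.4.5 and TopHat2 2.1.1. For *Tsix*-stop cells the estimated counts of each gene were deposited with no normalization. Counts on the 129 genome served as diploid counts after rounding (7.10% of them were not whole). For E8 cells the authors deposited TPM only, and 537 symbols listed more than once were summed. In each E8 library 2 small RNA entries took 17.9% to 22.8% of all TPM, so levels are not set across lines by a test. The paper describes E8 RNA-seq on other days than the labels give, and without replicates, and the labels were followed.

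Counts were fitted with edgeR 4.0.16 (R 4.3.3) in 1 quasi-likelihood fit of the 8 wt and KO libraries by genotype and day, with TMM factors of 0.915 to 1.08, over genes that reached 2.5 CPM in 2 or more libraries (common biological coefficient of variation 0.158). log2(TPM + 1) of the 8 E8 libraries was fitted with limma 3.58.1 with a trend, over genes that reached 2.5 TPM in 2 or more libraries. Adjusted p-values are Benjamini-Hochberg over all genes tested, called at 0.1 and 2-fold. Both fits were tested on simulated data. With 2 libraries against 2 an exact permutation test cannot go below 0.333, so none was made. For *Tsix*-stop cells, counts were turned into TPM with exon lengths of GENCODE vM21. Figures were drawn with matplotlib 3.10.9.

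1 further pathway gene and 1 sequence are not reported here. The members and lists were chosen with earlier results of these data known. All 10 members are named. Of the 44 pathway genes, values are given for those with the largest changes among those called in each comparison of KO with wt. These were up to 3 rises and up to 3 falls, and further called genes are given by name only. Of the 6 marker lists, sums, counts and genes at 0 are given, and for a few sums the gene with the largest part. Several sums rest mostly on a single gene and mainly follow that gene. In E8 wt this was *Dppa5a* for pluripotency and *Thy1* for fibroblast markers. In *Tsix*-stop wt at D0 it was *Myl7* for cardiac and *Tubb3* for neural markers. For *Nodal* and *Bmp4* the 3 most correlated genes are given. Alternatives included DESeq2 1.42.0, other scalings, filters and pseudocounts, the count on the *cast* genome, a replicate block, the CRISPR control added to wt and each library left out.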

Additional observations from a re-analysis of the deposited data

Results flagged for a closer look

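The change between KO and wt differed between days by the interaction test for these members. The *Tsix*-stop difference (D15 minus D0, log2) was 3.01 for *Lefty1*, 1.05 for *Lefty2*, −4.30 for *Bmp2* and −2.64 for *Id3*. In E8 cells (D15 minus D7) it was 1.80 for *Lefty1*, 1.33 for *Lefty2*, 2.87 for *Cer1* and 1.62 for *Bmp4*.

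At D15, 7 members had log2 changes of opposite sign in the 2 lines, with every KO library on one side of wt in *Tsix*-stop cells and on the other side in E8 cells. The same held for 44.7% of the 11956 genes tested in both lines, and the difference between the lines was not tested. In *Tsix*-stop cells *Gdf3*, *Lefty1* and *Id1* were not called. *Gdf3* had log2 changes of 0.48 in *Tsix*-stop cells and −0.83 in E8 cells, and *Lefty1* had 0.99 and −2.10. *Cer1* had −3.17 and 1.72, *Bmp2* had −2.54 and 3.23, and *Bmp4* had −1.65 and 1.86. *Id1* had −0.64 and 0.95, and *Id3* had −1.12 and 2.89. Marker levels of wt at D15 also differed between the lines. Fibroblast markers summed to 3053 and 2714 TPM in *Tsix*-stop wt and 23.8 and 25.5 TPM in E8 wt. Visceral endoderm markers summed to 712 and 797 TPM against 16.3 and 17.0 TPM, and pluripotency markers to 8553 and 9220 TPM against 17000 and 17803 TPM. These levels, the deleted part of *Kdm6a*, the stop in *Tsix*, the parental strains and the unit of the values differ between the lines and cannot be told apart.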

How the results depend on the processing

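Of the 45 member changes called over the 10 comparisons, none changed direction under any alternative run. Of these, 27 kept their call under every alternative, and 5 kept it where tested but were not tested under some, being under the filter on low counts. With the CRISPR control libraries added to wt, 0 members were called at D0 (20 genes in all against 1066; 3 members without them), 1 at D15 (1115 genes against 1958) and 0 in the interaction of KO and day (564 genes against 2247), all in *Tsix*-stop cells, and *Id3* lost its call between days in wt. With 2.5 CPM required in 4 libraries, 2 members were called in *Tsix*-stop cells at D15 and 3 between days in KO, since *Bmp2* and *Cer1* were no longer tested. With no minimum fold, 9 members were called between days in *Tsix*-stop KO and 10 in E8 cells at D15. The count was 8 and 10 between days in E8 wt and KO and 8 in the E8 interaction. Most of all genes were then called too: 8489 of 13121 between days in *Tsix*-stop KO and 9745 of 12452 in E8 cells at D15. Between days in E8 wt and KO it was 7301 and 9451 of 12452 genes, and 8369 in the E8 interaction. Without a filter on low counts the calls over all genes rose from 1066 to 1738 at D0, from 1958 to 3099 at D15, from 4965 to 7713 between days in wt and from 3625 to 5665 in KO, and a pseudocount of 0.1 moved those of E8 wt between days from 175 to 332.

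Leaving out a library, or a KO replicate on both days (added after seeing the data, since the 2 KO replicates differ in *Kdm6a*), gave 2 to 6 called members in *Tsix*-stop cells at D0, 0 to 5 at D15, 2 to 6 in the interaction, 7 to 8 between days in wt and 4 to 6 in KO. The count of 0 came without wt D15 replicate 1. In E8 wt between days it gave 1 to 2. A group left with 1 library is assumed to vary like the others.

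Changes that were not called turned direction in a few cases. With the CRISPR control added to wt, *Nodal* at D0 was at 0.11 and *Lefty2* at D15 at 0.18. *Lefty2* at D15 was at 0.0052 without a filter, and the interaction of *Bmp2* in E8 cells was 0.54 with a pseudocount of 0.1. With libraries left out, *Tsix*-stop log2 changes at D0 ran from −0.16 to 0.00045 for *Nodal* and from −0.24 to 1.16 for *Id1*, and at D15 from −0.048 to 0.41 for *Nodal*, −0.062 to 0.57 for *Tdgf1* and −0.35 to 0.22 for *Lefty2*. The change of *Id3* between days in KO ran from −1.37 to 0.10, the interaction from −0.033 to 0.55 for *Nodal* and from −0.89 to 0.61 for *Bmp4*, and that of *Bmp2* in E8 cells from −0.21 to 0.028. Causes were not tested.

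With the replicate block, 4, 4, 8, 5 and 5 members were called in the *Tsix*-stop comparisons (D0, D15, between days in wt and in KO, interaction) and 7, 6, 2, 2 and 4 in the E8 ones. The labels do not say that a number marks a shared culture, and the differences between replicates of wt and KO correlated at 0.01 and −0.13 in *Tsix*-stop cells and 0.12 and −0.16 in E8 cells. Crossed pairings, added after seeing the data, called 4 members at D15 in *Tsix*-stop cells, 8 between days in wt and 6 at D15 in E8 cells. TMM scaling of TPM moved the median log2 change of all genes in E8 cells from 0.10 to 0.00 at D7 and from 0.09 to 0.00 at D15 and changed no direction of a member there. Below about 20 counts (*Bmp2* and *Cer1* at D0) folds are imprecise.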
